A study of Solanum lycopersicum with 8 samples.

Results

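Photosynthesis in a leaf runs on a small set of very abundant transcripts, and 47 tomato genes of this kind were followed here. The set holds nuclear genes for chlorophyll a-b binding proteins, for subunits of the photosystems and for the small subunit of Rubisco. Rows were matched to the members by gene identifier alone, without the version suffix. The list of members was chosen with earlier results of these data known. Of the 47 listed genes, 44 had a row among the 34688 genes of the table. Solyc05g056070, Solyc02g090030 and Solyc03g005790 were not analysed here. Members with values lay on 10 of the tomato chromosomes, 13 of them on chromosome 2.

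Wild-type Micro-Tom, a dwarf tomato cultivar, was grown at 25 °C under 16 h of light and 8 h of dark at 300 µmol m-2 s-1. Seedlings 10 days old received 5 µM Torin2 for 2 h, and mock seedlings received water with 0.1% DMSO. Torin2 is an inhibitor of the ATP site of TOR, a kinase that couples growth to nutrients and energy in plants and animals. Each condition gave 4 libraries from separate biological replicates, and RNA came from whole seedlings, so that shoots and roots were measured together. The question put to these genes was whether brief TOR inhibition changed their transcript levels.

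Chlorophyll a-b binding proteins hold the pigments that gather light and pass its energy to the photosystems. Photosystem II takes electrons from water, photosystem I lifts them to the level needed to reduce NADP+, and Rubisco fixes CO2. The Rubisco small subunit is made from a family of nuclear genes and joins a large subunit encoded in the chloroplast. In seedlings these nuclear genes are known for their strong induction by light. Of the members, only Solyc02g063150.3 (*RBCS1*) and Solyc02g085950.5 carried a description in the sources used, both as Rubisco small subunits, and the other members are given by identifier. Several members are neighbours by identifier, and these runs serve as groups below: 8 genes on chromosome 2, 3 on chromosome 3, and a pair each on chromosomes 1 and 8.

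The depth was 36989257 to 39868131 fragments per library, and values are in FPKM, the fragments per kilobase of gene model, scaled by the authors to the depth of the library. All 44 genes were abundant enough that counting error was small, with 580 to 742905 fragments per gene and library. The mean over the 8 libraries was at least 100 FPKM for 43 of them and at least 1000 FPKM for 35. Members made up 21 of the 50 genes with the highest mean FPKM and 4 of the 10 highest. Solyc03g034220.3 was rank 2 of all genes. The least abundant member, Solyc06g069000.3, averaged 13.8 ± 1.19 FPKM in Torin2 and 19.2 ± 2.51 FPKM in mock seedlings (SD, n = 4 each).

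Libraries of the same condition differed from each other, and the largest part of this difference lay along 1 direction. Each library's deviation from its condition mean was summarised over 22286 genes, members left out, and the first principal component held 53.6% of the variance. It placed Torin2 2 and 4 with mock 1 and 2 on its first side, and Torin2 1 and 3 with mock 3 and 4 on its second side. The sources used name no batch, and both sides hold 2 libraries of each condition. Fold changes are therefore also given within each side. The summed FPKM of all genes was 902519 to 1162359 in Torin2 and 955496 to 1096347 in mock libraries, so a share of this sum and a level in FPKM need not move alike.

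Together the members held a smaller part of the transcriptome after Torin2. Their share of total FPKM was 10.1, 10.4, 12.0 and 11.1% in Torin2 1 to 4, against 13.3, 13.0, 14.4 and 13.3% in mock 1 to 4. No Torin2 library reached the lowest mock library. The mean share was 10.9 ± 0.821% in Torin2 and 13.5 ± 0.589% in mock seedlings (SD, n = 4 each), a difference of -2.61 percentage points. The difference is larger than the SD of either condition, and it is given without a test because it is a score over a chosen set. Counted as shares of fragments in place of FPKM, the members held 8.46 to 11.1% in Torin2 and 11.3 to 13.8% in mock libraries. With the 10 most abundant other genes left out of the total, the shares were 11.1 to 13.4% and 13.9 to 16.0%, Torin2 and mock in that order. In whole seedlings, fewer cells of a type and less RNA per cell cannot be told apart. The 2 genes that the study's table describes as Casparian strip membrane proteins, known from the root endodermis, summed to 4.36 to 8.75 FPKM in Torin2 and 11.7 to 17.7 FPKM in mock libraries, with Solyc02g067190.4, the lower of them, at 0 in Torin2 4. That table lists genes called changed on these same samples, and the part of root and shoot proportions in the result was not tested.

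**Figure D1:**
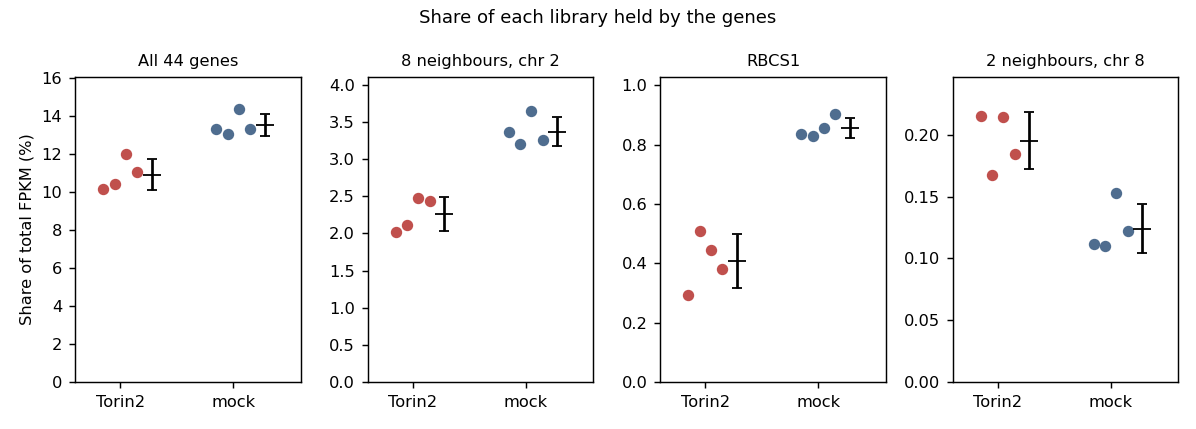
Share of the total FPKM of each library (%, y axis) held by all 44 genes, the 8 neighbours on chromosome 2, RBCS1 and the 2 neighbours on chromosome 8, with Torin2 left of mock, a point per library and the mean ± SD beside the points. The 4 Torin2 libraries lie below the 4 mock libraries in the first 3 panels (10.1 to 12.0% against 13.0 to 14.4% for all 44 genes) and above them in the last.

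A few members carried most of the difference in share. The 8 neighbours on chromosome 2 held 2.02 to 2.48% of FPKM in Torin2 and 3.20 to 3.65% in mock libraries, which is 42.5% of the difference. *RBCS1* alone held 0.295 to 0.509% in Torin2 and 0.830 to 0.904% in mock libraries, a further 17.2%. Solyc03g034220.3 made up 11.9% of the difference, but its share overlapped between conditions, at 0.949 to 1.52% in Torin2 and 1.25 to 1.89% in mock libraries. Without *RBCS1* the other members held 9.84 to 11.5% in Torin2 and 12.2 to 13.5% in mock libraries, still with no overlap. Without *RBCS1* and the chromosome 2 genes the ranges met, at 7.79 to 9.05% in Torin2 and 8.99 to 9.86% in mock libraries.

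Most members were lower after Torin2, by modest amounts. Of the 44 genes, 36 had a log2 fold change below 0 (Torin2 over mock, on log2(FPKM + 0.1)), where 38.6% of the 22330 genes tested did. The members' median was -0.34, with a range of -1.12 to 0.68, and 14 lay within 0.2 of 0 in either direction. The median of all genes tested was 0.16, so the members' median lay at -0.51 relative to it. Closer to the members in abundance were 2893 genes averaging 50 FPKM or more, which had a median of -0.10 and were below 0 for 57.9%. Relative to these abundant genes the members' median lay at -0.24.

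By the limma test with Benjamini-Hochberg adjustment over all genes tested, 1 member passed both cut-offs (a log2 fold change over 1 in size, with an adjusted p under 0.05), where 8.32% of all genes and 6.98% of the abundant genes did. That member, *RBCS1*, fell. Of all genes past both cut-offs, 671 fell and 1186 rose. At an adjusted p under 0.05 alone, 7 members fell, or 15.9%, where 5.08% of all genes and 12.1% of the abundant genes fell. With limma, 0 rose at that threshold, where 7.53% of all genes and 5.95% of the abundant genes did. With limma-voom on recovered fragments also 0 rose, where 10.9% and 4.46% did. In some other settings of the fit up to 2 rose, as under quantile scaling and with the side as a covariate. At an unadjusted p under 0.05, 18 members were lower, beside 10.1% of all genes and 22.2% of the abundant genes, and 2 were higher, beside 19.0% and 12.7%. In 17 members every Torin2 library lay below every mock library, beside 7.77% of all genes and 18.7% of the abundant genes. No member had every Torin2 library above every mock library, beside 11.4% and 7.47%. The count of 7 was also found without Torin2 1 and without Torin2 3, but without Torin2 2, Torin2 4 or any single mock library it was 2, namely *RBCS1* and Solyc01g105050.3. In the refits with 7, 5.33 and 3.86% of all genes and 14.2 and 8.99% of the abundant genes were lower. In the refits with 2, 2.62 to 5.18% of all genes and 5.25 to 11.1% of the abundant genes were lower.

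**Figure D2:**
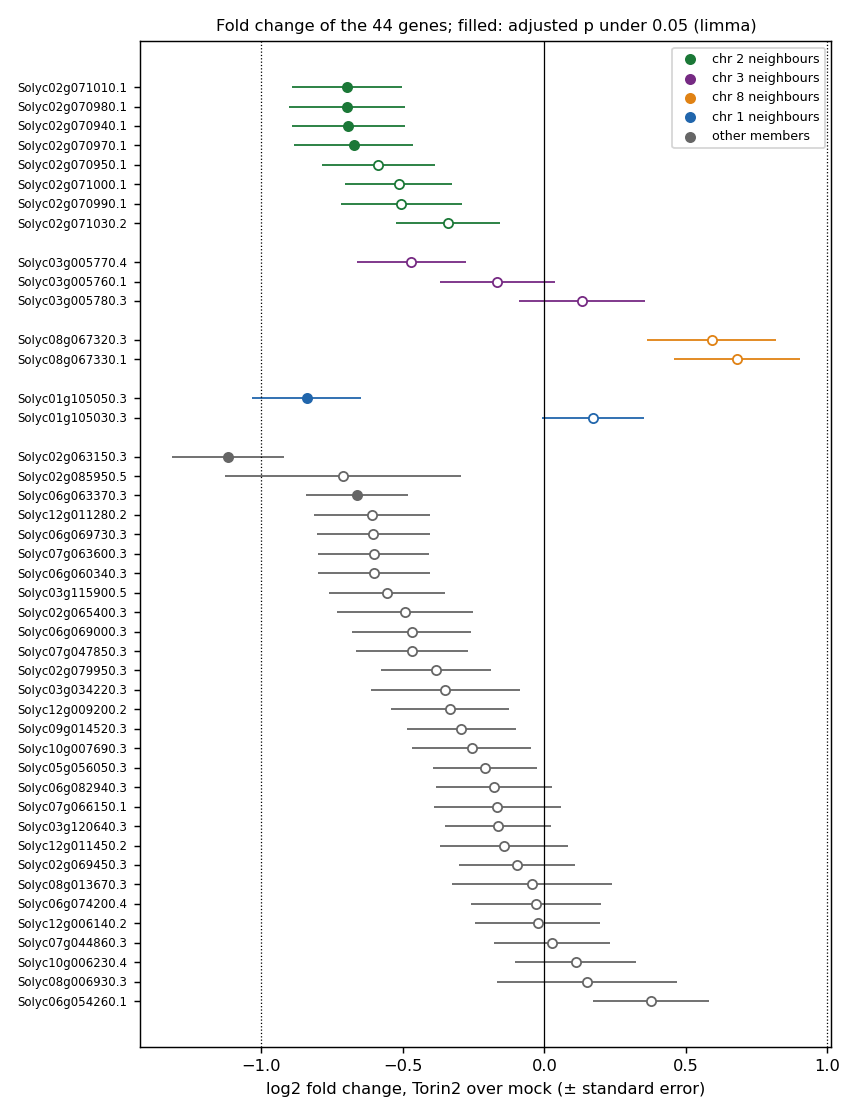
Log2 fold change of each of the 44 genes, Torin2 over mock (x axis, ± standard error from limma), grouped by runs of neighbouring identifiers, with filled points at an adjusted p under 0.05 and dotted lines at -1 and 1. The 7 filled points run from -1.12 to -0.66, and RBCS1 (Solyc02g063150.3) alone lies beyond -1.

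Of the Rubisco small subunit genes, *RBCS1* fell most among all members. Solyc02g063150.3 had 3424, 4595, 4735 and 3440 FPKM in Torin2 1 to 4, against 7987, 7967, 9385 and 9521 FPKM in mock 1 to 4. Every Torin2 library was far below the lowest mock library. The mean was 4048 ± 714 FPKM in Torin2 and 8715 ± 854 FPKM in mock seedlings (SD, n = 4 each), a fold of 0.461. The log2 fold change was -1.12 with a standard error of 0.20 (limma, adjusted p = 0.00226). An exact two-sided permutation test gave p = 0.0286, the smallest that 4 against 4 libraries allow. Within the first side the level in Torin2 was 0.498 times that in mock, and within the second 0.426 times. Over the other settings of the fit the fold ran from 0.412 to 0.499, with an adjusted p of 0.000201 to 0.0393 in 23 refits (limma). Its ratio to Solyc03g034220.3, the most abundant member, was 0.216 to 0.483 in Torin2 and 0.454 to 0.666 in mock libraries, so the ranges of this ratio overlapped slightly.

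Solyc02g085950.5, the other gene described as a Rubisco small chain, was less abundant and varied widely inside both conditions. It had 658, 1057, 633 and 1572 FPKM in Torin2 1 to 4, against 2319, 3284, 828 and 791 FPKM in mock 1 to 4. Mock 3 and 4 lay within the range of the Torin2 libraries, and mock 1 and 2 lay above it. The log2 fold change was -0.71 with a standard error of 0.42 (limma, adjusted p = 0.274). The split followed the sides: the second side stood at 0.501 times the first in Torin2 and at 0.293 times in mock. Within the sides the log2 fold change was -1.10 in the first and -0.33 in the second. With the side as a covariate its adjusted p was 0.0157 (limma), and over the other 22 settings it was above 0.05. Without mock 2 the log2 fold change was -0.33, and without mock 4 it was -1.02. Its ratio to *RBCS1* was 0.134 to 0.457 in Torin2 and 0.0831 to 0.412 in mock libraries.

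The 8 neighbours on chromosome 2, Solyc02g070940 to Solyc02g071030, were all lower after Torin2. Their log2 fold changes ran from -0.34 to -0.70 with a median of -0.63. In 7 of the 8 every Torin2 library lay below every mock library, beside 7.77% of all genes and 18.7% of the abundant genes. Solyc02g070940.1, the most abundant of them, had 5105, 3540, 4776 and 4184 FPKM in Torin2, against 6550, 6222, 8313 and 7266 FPKM in mock libraries. Its log2 fold change was -0.69 with a standard error of 0.20 (limma, adjusted p = 0.0344). The 4 Torin2 libraries all lay below the lowest mock library, and Torin2 1 was the highest of them.

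Solyc02g071010.1 was close to it in level, with 4062, 3794, 5137 and 4121 FPKM in Torin2 and 6410, 6125, 8182 and 7036 FPKM in mock libraries (log2 fold change -0.70, limma adjusted p = 0.0300). Solyc02g070970.1 had 2609, 1865, 2980 and 2299 FPKM in Torin2 and 3427, 3340, 4864 and 3875 FPKM in mock libraries (log2 fold change -0.67, limma adjusted p = 0.0473). Solyc02g070980.1 had 2567, 1806, 2672 and 2136 FPKM in Torin2 and 3283, 3168, 4500 and 3906 FPKM in mock libraries (log2 fold change -0.70, limma adjusted p = 0.0373). All 3 thus kept the Torin2 libraries below the mock libraries, and in each the lowest Torin2 library was Torin2 2. At the other end of the run, Solyc02g071030.2 had a log2 fold change of -0.34 (limma, adjusted p = 0.235), with 4177, 3781, 4799 and 4445 FPKM in Torin2 and 5628, 5362, 5691 and 5028 FPKM in mock libraries. Solyc02g070990.1 was the member of the run whose conditions overlapped, at 987 to 1653 FPKM in Torin2 and 1651 to 2289 FPKM in mock libraries. In 7 of the 8 genes the length of the gene model, as recovered from the FPKM values, was 798 bp, and in Solyc02g070980.1 it was 399 bp. A recovered length is the smallest that made all fragments whole, so the true length could be a multiple of it. The processing notes name HTSeq, which by default leaves out reads placed at several loci, so the values of near-identical copies are uncertain; how alike these genes are in sequence was not examined.

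The highest of all members, Solyc03g034220.3, had 15872, 9515, 16106 and 8604 FPKM in Torin2 and 12663, 11964, 20682 and 17613 FPKM in mock libraries. Torin2 2 and 4 were the 2 lowest libraries, while Torin2 1 and 3 lay within the mock range. Its log2 fold change, -0.35 (limma, standard error 0.26 and adjusted p = 0.406), was smaller than the spread between libraries of the same condition. On chromosome 3 also, the 3 neighbours moved unequally. Solyc03g005770.4 had 2506 to 3244 FPKM in Torin2 and 3496 to 4670 FPKM in mock libraries, with no overlap (log2 fold change -0.47, limma adjusted p = 0.119). Solyc03g005760.1, at 5965 to 7928 FPKM in Torin2 and 7032 to 9838 FPKM in mock libraries, had a log2 fold change of -0.17. Solyc03g005780.3, at 2461 to 4038 FPKM in Torin2 and 2423 to 3931 FPKM in mock libraries, had 0.13, and -0.027 after median-of-ratios scaling. The ratio of Solyc03g005780.3 to Solyc03g005770.4 did not overlap between conditions, at 0.982 to 1.24 in Torin2 and 0.693 to 0.842 in mock libraries. This ratio was chosen after the values were seen and does not depend on the scaling of a library.

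**Figure D3:**
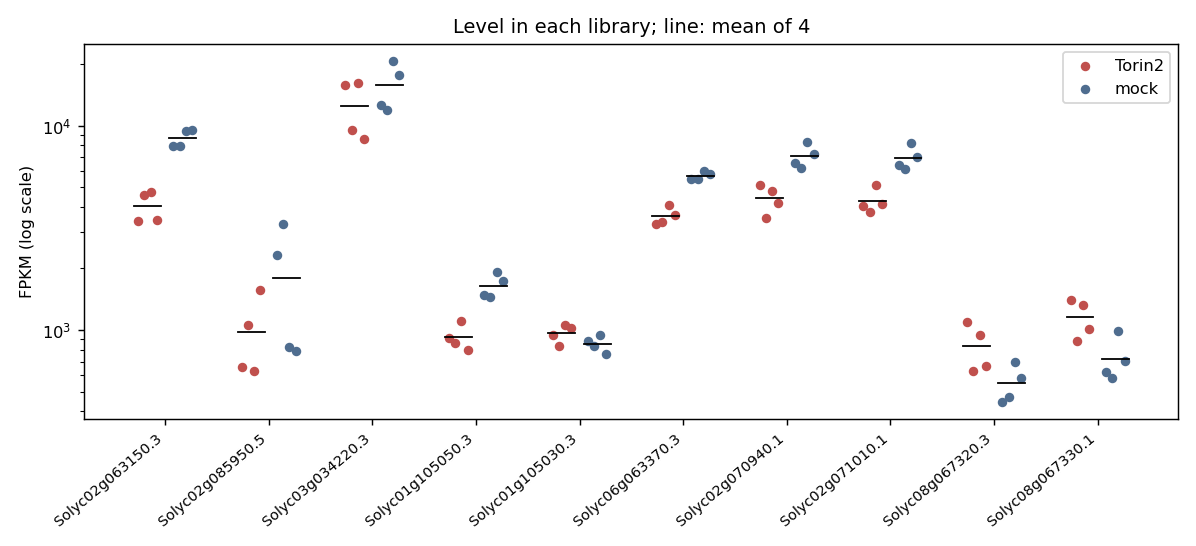
FPKM in each library (y axis, log scale) for 10 of the genes described, with Torin2 left of mock for each gene, a point per library and a line at the mean of 4. The conditions do not overlap for RBCS1 (Solyc02g063150.3), Solyc01g105050.3, Solyc06g063370.3, Solyc02g070940.1 and Solyc02g071010.1, and they do for the other 5 genes.

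The pair on chromosome 1 parted. Solyc01g105050.3 had 912, 862, 1108 and 799 FPKM in Torin2 and 1485, 1446, 1918 and 1735 FPKM in mock libraries, with no overlap. It fell by 0.84 on the log2 scale (limma, standard error 0.19 and adjusted p = 0.0108), and its adjusted p was under 0.05 in all 23 other settings (0.00041 to 0.0448). Under median-of-ratios scaling it was past both cut-offs. Its neighbour Solyc01g105030.3 had 946, 837, 1061 and 1018 FPKM in Torin2 and 887, 840, 941 and 760 FPKM in mock libraries, a log2 fold change of 0.17 (limma, adjusted p = 0.567). The 2 genes were thus alike in level in Torin2 seedlings and apart in mock seedlings. The ratio of Solyc01g105050.3 to Solyc01g105030.3, chosen after the values were seen, was 0.784 to 1.04 in Torin2 and 1.68 to 2.28 in mock libraries.

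The pair on chromosome 8 had the highest fold changes of the set. Solyc08g067330.1 had 1402, 886, 1329 and 1006 FPKM in Torin2 and 621, 584, 985 and 704 FPKM in mock libraries. Only mock 3 reached into the range of the Torin2 libraries. The log2 fold change was 0.68 with a standard error of 0.22 (limma, adjusted p = 0.0573), just short of the threshold. Its adjusted p was under 0.05 in 6 of 23 other settings, with 0.0400 without Torin2 2 and 0.0330 without mock 3 (limma), and it was 0.330 under median-of-ratios scaling. Solyc08g067320.3 had 1100, 629, 948 and 666 FPKM in Torin2 and 447, 471, 695 and 580 FPKM in mock libraries, a log2 fold change of 0.59 (limma, adjusted p = 0.100). As a share of total FPKM the pair held 0.168 to 0.215% in Torin2 and 0.110 to 0.153% in mock libraries. The summed FPKM of the pair over that of the chromosome 2 run was 0.0756 to 0.107 in Torin2 and 0.0332 to 0.0420 in mock libraries, a ratio chosen after the values were seen. The recovered lengths of these gene models were 276 and 297 bp, shorter than a pair of 150-bp reads, and the effect of that length on their counts was not tested.

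Among the 29 members outside the runs, 25 were lower and 4 higher, and their median was -0.29 on the log2 scale. Besides *RBCS1*, Solyc06g063370.3 fell, with 3314, 3382, 4081 and 3658 FPKM in Torin2 and 5496, 5478, 5989 and 5806 FPKM in mock libraries. Its libraries were tightly grouped within each condition and far apart between them, and the log2 fold change was -0.66 (limma, standard error 0.18 and adjusted p = 0.0276). The log2 fold changes of Solyc12g011280.2 (-0.61), Solyc06g069730.3 (-0.60), Solyc07g063600.3 (-0.60) and Solyc06g060340.3 (-0.60) were close to it, with no overlap between conditions. Their adjusted p ran from 0.0556 to 0.0648 (limma). Solyc07g063600.3, the most abundant of these 4 genes, had 691, 969, 1127 and 1017 FPKM in Torin2 and 1370, 1356, 1465 and 1505 FPKM in mock libraries, so Torin2 1 was the lowest library.

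The remaining single genes, Solyc02g085950.5 aside, lay nearer to 0 in fold change, though some only slightly. The lowest of them was Solyc03g115900.5 at -0.56 on the log2 scale (limma, adjusted p = 0.0863). Next was Solyc02g065400.3 at -0.49 (limma, adjusted p = 0.187), and in both the conditions overlapped. Solyc06g069000.3 and Solyc02g079950.3 had no overlap between conditions, with log2 fold changes of -0.47 and -0.38 (limma, adjusted p = 0.153 and 0.203). Solyc06g054260.1 had the highest fold change of the 29 genes, with 5438, 4443, 6303 and 5366 FPKM in Torin2 and 4291, 4154, 5011 and 3206 FPKM in mock libraries. Its log2 fold change was 0.38 (limma, adjusted p = 0.237), and Torin2 2 lay within the mock range. Solyc07g044860.3, Solyc10g006230.4 and Solyc08g006930.3 had log2 fold changes of 0.027, 0.11 and 0.15, and each was below 0 after median-of-ratios scaling. Solyc03g034220.3 was named by rule for its abundance, and Solyc01g105050.3 and Solyc08g067330.1 by rule for their fold changes, so these also rest on the values. Members named beyond them and the Rubisco genes were chosen after their values were seen.

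Within each side of the first component the members behaved much as they did over all libraries. The median log2 fold change was -0.32 in the first side (Torin2 2 and 4 over mock 1 and 2) and -0.30 in the second (Torin2 1 and 3 over mock 3 and 4). Of the 44 genes, 34 were lower in both sides, 6 were higher in both and 4 had unlike signs. Across the genes the fold changes of the sides had a Spearman rho of 0.75 (n = 44), a description, since genes are not independent and share libraries. With the side as a covariate, 20 members were lower at an adjusted p under 0.05 (limma), but calls became more frequent throughout the table, with 12.6% of all genes and 28.6% of the abundant genes lower. In the same fit 2 members were higher, beside 25.7% of all genes and 17.4% of the abundant genes. The side was itself derived from these libraries.

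**Figure D4:**
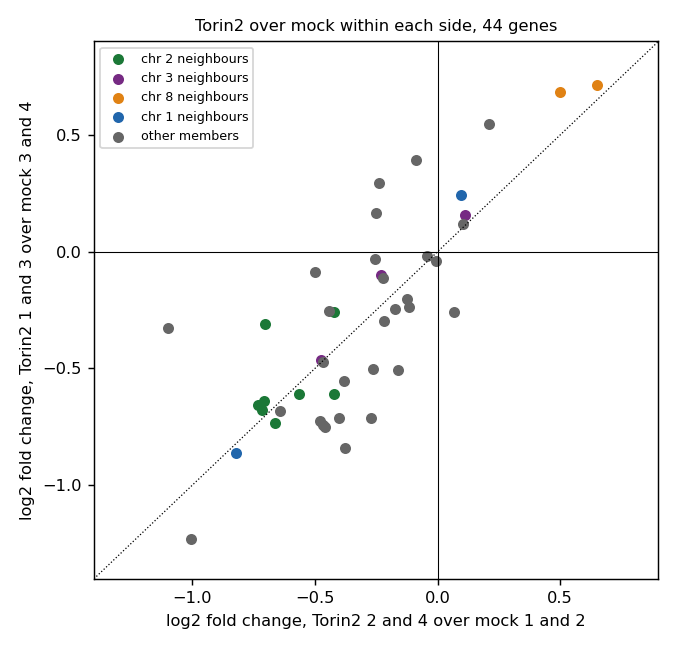
Log2 fold change of the 44 genes within the second side (Torin2 1 and 3 over mock 3 and 4, y axis) against that within the first side (Torin2 2 and 4 over mock 1 and 2, x axis), coloured by run, with a dotted line of equality. Most points lie below 0 on both axes, where 34 genes were lower in both sides, and Solyc02g085950.5 lies apart at -1.10 in the first side and -0.33 in the second.

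The levels of many members also differed between the sides, in a like way in both conditions. The sides came from a component pooled over both conditions, so part of this likeness was built in. In Torin2, 29 of the 44 genes were higher in the second side than in the first, and in mock 31 were. Members with a gene model of at most 1000 bp, 26 in all, were higher in the second side by a median of 0.32 in Torin2 and 0.29 in mock on the log2 scale. For the 18 longer members the medians were -0.067 and -0.026, Torin2 and mock in that order. Across the genes, the difference between the sides had a Spearman rho with gene length of -0.61 in Torin2 and -0.56 in mock (n = 44). This rho was not computed over all genes, so it is not shown to be particular to the members. The fold change of Torin2 over mock had a rho with length of -0.14, and its median was -0.34 for members of either length class.

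In Torin2 the widest differences between the sides were in Solyc08g006930.3 and Solyc08g013670.3, and in mock the widest was in Solyc02g085950.5, described above. Solyc08g006930.3 had 7211, 2547, 5141 and 2728 FPKM in Torin2 1 to 4, against 2799, 2806, 5194 and 4138 FPKM in mock 1 to 4. The second side was higher by 1.21 in Torin2 and 0.73 in mock on the log2 scale, while the log2 fold change between conditions was 0.15 (limma, adjusted p = 0.795). Solyc08g013670.3 differed by 1.04 and 0.62 in the same way, with a log2 fold change of -0.043 between conditions. Over the members, the SD of the log2 values was larger in Torin2 than in mock for 34 of 44 genes, with medians of 0.27 in Torin2 and 0.22 in mock. The same count over all genes was not made. Scores on the first component, with members left out, also ran wider in Torin2, from -70.5 to 61.2, against -49.6 to 37.6 in mock.

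**Figure D5:**
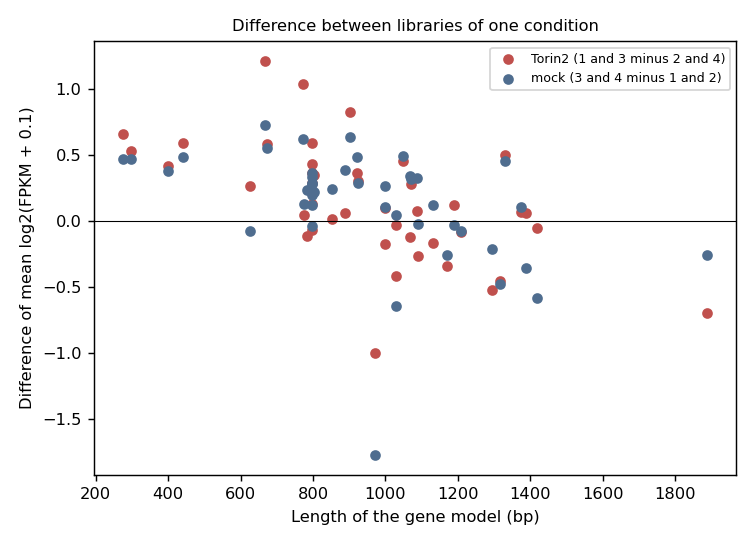
Difference of mean log2(FPKM + 0.1) between the second and the first side within Torin2 and within mock (y axis) against the length of the gene model in bp (x axis) for the 44 genes. Shorter members lie mostly above 0 in both conditions (medians of 0.32 in Torin2 and 0.29 in mock up to 1000 bp), and Solyc02g085950.5 is lowest in both.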

How the data were processed

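RNA-seq of whole Micro-Tom seedlings gave 4 Torin2 and 4 mock libraries, grouped by their labels. The authors prepared them with the VAHTS Universal V6 kit (strand setting not given in the sources used here), sequenced 150-bp pairs and used HISAT2 for alignment to the SL4.0 build; FPKM for 34688 genes were deposited. The submitters' processing notes also name fastp, FastQC, SAMtools, HTSeq, DESeq2 and DESeq.

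The FPKM were whole fragments divided by 1 factor per library and 1 length per gene, to a tolerance of 0.02 fragments for all positive values of 25571 genes. This gave depths of 36989257 to 39868131 fragments and the gene lengths. Each length was the smallest whole number of bp that made the fragments of all libraries whole, and none was read from an annotation. With limma 3.58.1 (R 4.3.3; lmFit, and eBayes with a trend) log2(FPKM + 0.1) was compared between conditions for 22330 genes averaging 0.1 FPKM or more, with Benjamini-Hochberg adjustment over all of them. The cut-offs were an adjusted p of 0.05 and an absolute log2 fold change of 1. Exact two-sided permutation tests ran over 70 assignments. The main fit and the recovery of fragments were also tried on simulated counts. These counts were drawn independently for each library, with no component shared between libraries and no length trend, so they cannot test the fit against either. Summaries used scipy 1.17.1, pandas 2.3.3 and numpy 2.4.6 under Python 3.11.15, and plots matplotlib 3.10.9.

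The members and lists were chosen with earlier results of these data known. Named by rule were the most abundant member, those with the lowest and highest fold change in each described group, and members past both cut-offs. The reference table matched 0 of the 47 members, so groups by product, lists of other photosynthesis genes and of root and shoot markers, sequences, promoter motifs and protein identity were not analysed here. Runs were members whose identifiers were within 100 of each other on a chromosome. Alternatives were other pseudocounts, filters, scalings, variance models, covariates, length correction, limma-voom on the recovered fragments, a stricter cut-off and each library left out.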

Additional observations from a re-analysis of the deposited data

Results flagged for a closer look

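In 90 groups of 4 libraries, taken over the members' log2 values and their summed share in each condition, the gap of the outermost library to its neighbour was divided by the range of the group. It exceeded Dixon's critical value in 2 groups, where chance would give about 4.5. For Solyc02g079950.3 in Torin2 the ratio was 0.982, with Torin2 1 at 899 FPKM and the other 3 libraries at 1290 to 1299 FPKM. For Solyc02g065400.3 in mock the ratio was 0.884, with mock 3 at 989 FPKM and the other 3 libraries at 1344 to 1400 FPKM.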

How the results depend on the processing

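Of 1056 fold changes of members over 24 other settings, 1024 kept their direction and their side of both cut-offs, and 35 members did so throughout. Solyc01g105050.3 passed both cut-offs under median-of-ratios scaling, which gave 2 members past both, where 1 did as reported. The 7 members lower at an adjusted p under 0.05 became 2 without a filter, 2 without a variance trend, 20 with the side as a covariate, 15 with the length trend removed, 13 with length trend and replicate block, 12 with limma-voom, 1 at 0.01, and 2 to 7 with a library left out. In the first 6 of these settings 3.95, 3.96, 12.6, 13.9, 12.2 and 12.6% of all genes were lower, against 5.08% as reported. Of the abundant genes 10.5, 6.77, 28.6, 25.2, 22.7 and 23.4% were lower in these 6 settings, against 12.1% as reported. For the cut-off of 0.01 such shares were not counted. With a library left out 2.62 to 5.33% of all genes and 5.25 to 14.2% of the abundant genes were lower. Members higher went from 0 to 2 (quantile), 1 (TPM), 1 (sum without members), 2 (side) and 0 to 1 with a library left out. In the same order 9.73, 3.74, 3.28, 25.7 and 3.21 to 10.7% of all genes were higher, against 7.53% as reported. Of the abundant genes 8.4, 4.8, 4.56, 17.4 and 3.32 to 8.4% were higher, against 5.95% as reported. The members' median of -0.34 was -0.50 under median-of-ratios scaling and -0.50 with voom; all genes' median moved from 0.16 to 0.01 under that scaling, and library SD of the members' median was 0.13.

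Genes of the whole table past both cut-offs, 1186 higher and 671 lower, were higher in 642 (pseudocount 1), 767 (median-of-ratios), 736 (quantile), 769 (TPM), 681 (sum without members), 769 (length trend removed), 736 (length trend and replicate block), 501 (adjusted p 0.01) and 663 to 1531 with a library left out. Lower were 444 (pseudocount 1), 1011 (median-of-ratios), 1067 (voom) and 426 (adjusted p 0.01). With the replicate number as a block, 1235 were higher and 674 lower, and 1 member was past both cut-offs, in the lower direction. At an adjusted p under 0.05 alone, 7 members were lower in that fit, beside 4.69% of all genes and 9.99% of the abundant genes. Same-numbered libraries had deviation correlations of -0.377, 0.380, 0.397 and -0.253, so the numbers were not taken as pairs.

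Log2 fold changes near 0 turned sign: under median-of-ratios scaling Solyc03g005780.3 -0.027, Solyc10g006230.4 -0.050, Solyc07g044860.3 -0.13 and Solyc08g006930.3 -0.0079; with voom Solyc03g005780.3 -0.021, Solyc10g006230.4 -0.049 and Solyc07g044860.3 -0.13; under quantile scaling Solyc07g044860.3 -0.0030, Solyc02g069450.3 0.012, Solyc08g013670.3 0.018 and Solyc06g074200.4 0.029; with the length trend removed, with or without the replicate block, Solyc12g006140.2 0.025. With a library left out the ranges were -0.22 to 0.0053 (Solyc02g069450.3), -0.13 to 0.37 (Solyc08g006930.3), -0.19 to 0.075 (Solyc12g006140.2), -0.25 to 0.13 (Solyc08g013670.3), -0.14 to 0.085 (Solyc06g074200.4) and -0.091 to 0.15 (Solyc07g044860.3). The causes were not tested. The difference in share was -2.97 to -2.32 percentage points with a library left out. Depth did not limit the members, each with at least 580 fragments.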

Other observations

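Genes of photosynthesis outside the set were read only where the study's table of changed genes describes them, so they were chosen on these samples and are no independent evidence of a direction. *POR1* (Solyc12g013710.2), a protochlorophyllide reductase that makes chlorophyllide in the light, had 323, 557, 462 and 414 FPKM in Torin2 and 937, 954, 739 and 835 FPKM in mock libraries. The conditions did not overlap, with means of 439 ± 97.4 FPKM in Torin2 and 866 ± 99.9 FPKM in mock seedlings (SD, n = 4 each; limma, adjusted p = 0.00574). Solyc08g067700.1, described as the D2 protein of photosystem II, a protein usually encoded in the chloroplast, had 28 to 92 fragments in Torin2 and 0 to 9 in mock libraries, with a log2 fold change of 3.29 that depends on the pseudocount (limma, adjusted p = 0.00052). The 2 identifiers described as *psbA*, the gene of the D1 protein of photosystem II, had 1 to 3 and 12 to 20 fragments in Torin2 and 1 to 26 and 7 to 170 fragments in mock libraries. Both maxima came from mock 2, and the adjusted p was 0.189 and 0.333 (limma).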
